A study of Mus musculus with 9 samples.

Results

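The miRNAs described here are miR-129, miR-124, miR-9, miR-132, miR-212 and miR-128, which are known chiefly from neurons. They were taken from the table of miRNA values by their names, whichever arm of the precursor they come from, which gave 14 of the 1251 miRNAs. The names were chosen with earlier results of these data known. The libraries were made from 3 adipose depots of C57BL/6J mice, all male, with 3 libraries each of interscapular brown adipose tissue (BAT), inguinal subcutaneous adipose tissue (SAT) and epididymal visceral adipose tissue (VAT). Every mouse was 5 to 6 weeks old at the start, received a high fat diet (HFD) with 45% of its energy from fat for 11 weeks, and was fasted for 4 hours before collection, so that no lean or untreated group stands beside them. Libraries are named by their depot and the number in their title: BAT 12, 15 and 20, SAT 14, 19 and 20, and VAT 14, 17 and 20. The tissues are bulk samples, and fewer cells of a type and less RNA per cell cannot be told apart.

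A miRNA is cut from a hairpin precursor, and either arm of the hairpin (5p or 3p) can be loaded into Argonaute, where the bases known as the seed guide it to messenger RNAs. MiR-124 and miR-9 are classical miRNAs of the neuronal lineage, miR-132 and miR-212 come from a single transcript that the activity-dependent factor CREB induces, miR-128 restrains neuronal excitability, and miR-129 is known to repress a potassium channel in dendrites. Fat depots hold sympathetic nerve fibres, most densely in BAT, while the cell bodies of those neurons lie in ganglia outside the fat. Several of these miRNAs are also made outside the nervous system, for example miR-132 in leukocytes and endothelium and miR-128 in skeletal muscle.

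The mature sequences below are those of the members on which the results turn, 5′ to 3′, with the seed (bases 2 to 8) in capitals. They are from RefSeq on GRCm38.p6, and the table of RefSeq miRNAs used here held 11 of the 14 members.
miR-129-5p: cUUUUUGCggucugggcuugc
miR-129-2-3p: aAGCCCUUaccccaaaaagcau
miR-132-3p: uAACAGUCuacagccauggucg
miR-212-3p: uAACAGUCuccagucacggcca
miR-212-5p: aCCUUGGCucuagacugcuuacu
miR-128-3p: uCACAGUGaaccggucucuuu
miR-128-1-5p: cGGGGCCGuagcacugucuga
miR-9-5p: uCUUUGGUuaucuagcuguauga

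MiR-132-3p and miR-212-3p shared the seed AACAGUC, and no other miRNA of the table with a sequence had it. Over their 22 bases they differed at 5 positions, all behind the seed (A10C, C14U, U17C, U20C and G22A, with the base of miR-132-3p first and positions counted from the 5′ end). MiR-129-5p, miR-129-2-3p, miR-128-3p, miR-212-5p and miR-9-5p each had a seed of their own among the miRNAs of the table with a sequence.

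The loci decide how far a value can be traced to a precursor. MiR-129-5p has the same sequence in Mir129-2 (chr2:94241364-94241453, minus strand, in an intron of the long non-coding RNA Mir670hg) and in Mir129-1 (chr6:29022619-29022691, plus strand, in an exon of the long non-coding RNA Gm3294). Their 3p arms differ in sequence. The best match of miR-129-2-3p in the hairpin of Mir129-1 differed from it by a single base (C20U, counted from the 5′ end). Whether the mapping kept reads of these arms apart at this base was not checked. MiR-128-3p likewise comes from Mir128-1 (chr1:128202361-128202430, in an intron of R3hdm1) and from Mir128-2 (chr9:112118636-112118711, in an intron of Arpp21), while their 5p arms have separate entries. Mir212 (chr11:75173388-75173478) and Mir132 (chr11:75173682-75173747) lie 203 bases apart on the plus strand, in an intron of the non-coding transcript 1700016P03Rik. MiR-9-5p can come from hairpins on chromosomes 3, 7 and 13. All coordinates are on GRCm38 from GENCODE.

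The deposited values are log2 of normalised read counts with a constant added. The lowest value, 3.32, is shared by all 9 libraries, and a miRNA at this value was not detected above the constant. Between 240 and 349 miRNAs per library lay above it. The lowest value stood at rank 256 to 274 from the top in BAT, 241 to 286 in SAT and 324 to 350 in VAT. Each VAT library thus had more miRNAs above the lowest value than any BAT or SAT library. The part of this in members detected near the lowest value in VAT was not tested. The study gives a rounded mean depth over its small RNA libraries, and the depth of each single library is not given in the sources used here. Precision rests on the spread among the 3 libraries of each depot. In the skeletal muscle miRNAs miR-133a-3p and miR-133b-3p, 3 libraries stood apart from the others, BAT 15, BAT 20 and VAT 20. MiR-133a-3p was at 17.20, 18.67 and 17.20 in them against 9.85 to 12.59 in the other 6. It made up nearly all of their summed muscle level. MiR-133b-3p was at 9.59, 10.82 and 9.76 in these 3, while miR-206-3p was at 8.17, 8.23 and 3.63. SAT 14 had the highest epithelial miRNAs. The summed leukocyte level was highest in SAT 20 (16.79), nearly all of it miR-150-5p (16.72), while its miR-223-3p lay below that of the other white depot libraries (9.19 to 10.38). The summed level of brown fat miRNAs (miR-193b-3p, miR-365-3p and miR-378a-3p), in which miR-378a-3p had the highest values, was 17.33 to 18.82 on the log2 scale in BAT, 15.15 to 15.23 in SAT and 15.66 to 16.26 in VAT. MiR-193b-3p and miR-378a-3p were higher in every BAT library than in the white depots, whereas miR-365-3p overlapped between them, with 11.05 in BAT 20 and 11.34 in SAT 19. Of the red cell miRNAs, miR-451a was higher in VAT than in BAT and SAT in limma, and miR-144-3p was at the lowest value throughout.

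The neuron-associated miRNAs ranged from not detected to among the 100 highest miRNAs of a library. Of the 14 members, 5 were at the lowest value in all 9 libraries, as were 839 of all 1251 miRNAs. These 5 were miR-124-3p, miR-124-5p, miR-9-3p, miR-129-1-3p and miR-128-2-5p. A further 3, miR-9-5p, miR-132-5p and miR-128-1-5p, were above it in 2 libraries each. The remaining 6 were above it in at least 3 of the 9 libraries, whatever the depot, and were tested, as were 343 of all 1251. These were miR-129-5p, miR-129-2-3p, miR-128-3p, miR-132-3p, miR-212-3p and miR-212-5p. Of the 5 miRNAs taken to define neurons, miR-124-3p and miR-137-3p were at the lowest value throughout, miR-9-5p was above it in 2 libraries, miR-129-5p in 6 (up to 8.98) and miR-128-3p in all 9 (7.70 to 10.23). The group is named here for where its members are best known.

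**Figure D1:**
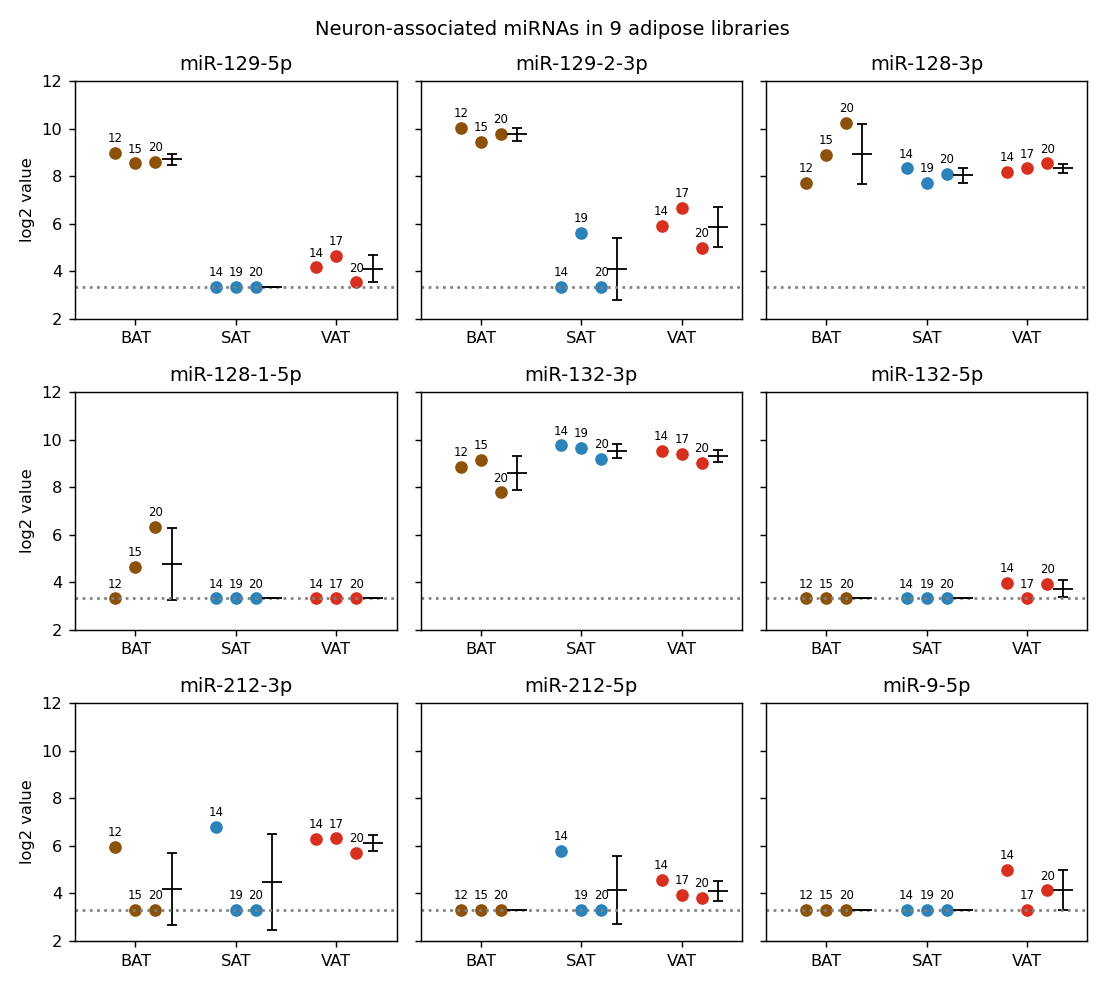
Log2 values (y axis) of the 9 members above the lowest value in any library, by depot (x axis). Each point is a library with its number, bars show the mean and SD (n = 3), and the dotted line is the lowest value, 3.32. Both arms of miR-129 stand high in the 3 BAT libraries, whereas miR-128-3p and miR-132-3p are detected in all 9 libraries.

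MiR-129 had higher expression in BAT than in both white depots, on both arms. For miR-129-5p the paper already reports this direction from the same libraries, among its top differentially expressed miRNAs. MiR-129-5p was at 8.98, 8.53 and 8.60 in BAT 12, 15 and 20 (8.70 ± 0.24, SD, n = 3), at the lowest value in all 3 SAT libraries, and at 4.16, 4.64 and 3.52 in VAT 14, 17 and 20 (4.10 ± 0.56, SD, n = 3). MiR-129-2-3p, the opposite arm from Mir129-2, was at 10.02, 9.45 and 9.78 in BAT (9.75 ± 0.29, SD, n = 3), at 3.32, 5.60 and 3.32 in SAT (4.08 ± 1.31, SD, n = 3) and at 5.92, 6.68 and 4.97 in VAT (5.85 ± 0.86, SD, n = 3). For neither arm did a white depot library reach the lowest BAT library. MiR-129-2-3p placed 91 to 103 from the top among the miRNAs of the BAT libraries and 194 to 242 in the VAT libraries.

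In VAT/BAT, the log2 difference was -4.60 for miR-129-5p (95% interval -5.43 to -3.77, adjusted p = 0.000207) and -3.90 for miR-129-2-3p (-5.02 to -2.78, adjusted p = 0.000675), in limma's moderated test with Benjamini-Hochberg adjustment over all 343 tested miRNAs. In SAT/BAT, miR-129-5p was at least 41.7-fold lower (adjusted p = 3.82e-05 in limma), a lower bound because SAT was at the lowest value. SAT shows no spread there, so this p-value rests on the spread in BAT and on limma's moderation. MiR-129-2-3p had a log2 difference of -5.67 in SAT/BAT (-7.53 to -3.81, adjusted p = 0.00398 in limma). Since SAT 14 and SAT 20 were at the lowest value, the size of this difference is a minimum too. The value of SAT 19, the single SAT library with miR-129-2-3p above the lowest, sets the width of that interval.

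The 3p arm was the higher of the pair wherever both arms were above the lowest value, which was in 6 of 6 libraries. MiR-129-2-3p exceeded miR-129-5p by 0.92 to 1.19 on the log2 scale in BAT (1.05 ± 0.13, SD, n = 3) and by 1.45 to 2.04 in VAT (1.75 ± 0.30, SD, n = 3). The excess was 0.70 larger in VAT without overlap (exact permutation test, p = 0.1, two-sided, which is the lowest value that groups of 3 can give). The VAT values of miR-129-5p lie close to the lowest value, where the added constant compresses differences. The 3p arm of the other precursor, miR-129-1-3p, was at the lowest value in all 9 libraries.

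BAT 12, whose summed muscle miRNAs (10.10 on the log2 scale) lay within the range of the SAT libraries (9.85 to 10.79), had the highest values of both arms, and VAT 20, with a muscle sum of 17.21, had the lowest miR-129-5p and miR-129-2-3p among the VAT libraries. Without BAT 15, BAT 20 and VAT 20, an alternative chosen after seeing the data that leaves BAT 12 as the only BAT library and assumes that it varies like the other depots, miR-129-5p stayed past the threshold (in limma, VAT/BAT gave an adjusted p of 0.036, and SAT/BAT one of 0.000166). MiR-129-2-3p then had differences of -3.72 and -5.94, with adjusted p = 0.0642 and 0.0849 in limma. The summed level of the liver miRNAs miR-122-5p and miR-192-5p was 12.27, 9.94 and 12.75 in BAT 12, 15 and 20, 8.86 to 9.40 in SAT and 9.97 to 10.09 in VAT. MiR-122-5p was at 6.59 to 10.08 in BAT and at 3.32 to 4.14 in the white depots, and miR-192-5p did not pass the threshold (limma, with an adjusted p of 0.111 for VAT/BAT and of 0.0695 for SAT/BAT). BAT 15, whose liver sum lay below those of the VAT libraries, had miR-129-5p at 8.53. The part of muscle, brown fat and liver miRNAs in the miR-129 values was not tested.

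MiR-128-3p was detected in every library and differed most among the BAT libraries themselves. It was at 7.70, 8.88 and 10.23 in BAT 12, 15 and 20 (8.94 ± 1.27, SD, n = 3), at 8.32, 7.70 and 8.09 in SAT (8.04 ± 0.31, SD, n = 3) and at 8.16, 8.32 and 8.53 in VAT (8.34 ± 0.19, SD, n = 3). The BAT values span those of both white depots. No difference passed the threshold in limma, with log2 differences of -0.60 in VAT/BAT (95% interval -2.11 to 0.92, adjusted p = 0.421), -0.89 in SAT/BAT (-2.70 to 0.91, adjusted p = 0.354) and 0.30 in VAT/SAT (-0.22 to 0.82, adjusted p = 0.359). Without BAT 20, the VAT/BAT difference was 0.052. MiR-128-1-5p, the 5p arm of the precursor in R3hdm1, was at 4.66 in BAT 15 and 6.34 in BAT 20 and at the lowest value in the other 7 libraries, while the 5p arm of the precursor in Arpp21, miR-128-2-5p, was at the lowest value in all of them.

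The BAT libraries had the same order in miR-128-3p, miR-128-1-5p and skeletal muscle miRNAs. Their muscle sums were 10.10, 17.21 and 18.68 for BAT 12, 15 and 20, and those of VAT 14, 17 and 20, in the order of their miR-128-3p, were 9.85, 12.59 and 17.21. In SAT the order was another, since SAT 19 had the highest muscle sum (10.79) and the lowest miR-128-3p (7.70). Of the 6 muscle miRNAs in the list, miR-133a-3p, miR-133b-3p and miR-206-3p were tested, miR-1a-3p was above the lowest value only in BAT 20 (7.38) and VAT 20 (3.83), and miR-208b-3p and miR-499-5p were at the lowest value throughout. The part of muscle miRNAs in the miR-128 values was not tested. Without BAT 15, BAT 20 and VAT 20, the log2 difference of miR-128-3p was 0.55 in VAT/BAT (adjusted p = 0.105 in limma) and 0.35 in SAT/BAT (adjusted p = 0.534 in limma).

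**Figure D2:**
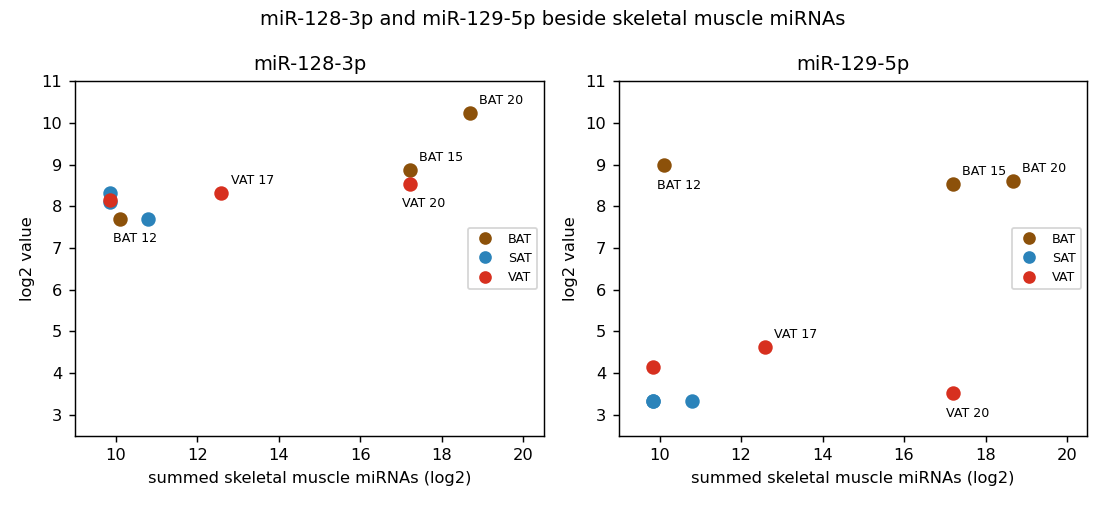
Log2 value of miR-128-3p (left) and miR-129-5p (right) on the y axis against the log2 of the summed values of 6 skeletal muscle miRNAs on the x axis, 1 point for each of 9 libraries, coloured by depot. Nearly all of the muscle sum is miR-133a-3p. MiR-128-3p is highest in BAT 20, the library with the highest muscle sum, 18.68, whereas miR-129-5p is high in all 3 BAT libraries, among them BAT 12 with a muscle sum of 10.10.

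MiR-132-3p had the highest values of the members in SAT and VAT. It was at 8.86, 9.15 and 7.78 in BAT (8.60 ± 0.72, SD, n = 3), at 9.76, 9.65 and 9.21 in SAT (9.54 ± 0.29, SD, n = 3) and at 9.52, 9.42 and 9.01 in VAT (9.32 ± 0.27, SD, n = 3). All 3 SAT libraries lay above the BAT libraries, with SAT 20 just above BAT 15, whereas VAT 20 lay below BAT 15. The log2 differences were 0.94 in SAT/BAT (95% interval -0.14 to 2.03, adjusted p = 0.137 in limma), 0.72 in VAT/BAT (-0.26 to 1.70, adjusted p = 0.159) and -0.22 in VAT/SAT (-0.79 to 0.34, adjusted p = 0.518), and none passed the threshold. BAT 20 had the lowest miR-132-3p of all libraries. Of 5 tested leukocyte miRNAs, 4 were called higher and 1, miR-150-5p, lower in VAT/BAT in limma (of all tested miRNAs, 39.4% were called higher in VAT), 1 was called higher in SAT/BAT (22.4% of all), and miR-155-5p was at the lowest value throughout. The pair of endothelial miRNAs, miR-126-3p and miR-126-5p, were called higher in VAT/BAT and SAT/BAT, with summed levels of 11.53 to 12.23 in BAT, 13.27 to 13.61 in SAT and 13.54 to 13.64 in VAT. SAT 20, with the highest summed leukocyte level, had the lowest miR-132-3p of the SAT libraries. The part of both lists in the miR-132 values was not tested. Its opposite arm, miR-132-5p, was above the lowest value in VAT 14 (3.96) and VAT 20 (3.92) alone.

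MiR-212-3p, which has the same seed and comes from the same transcript, was detected less regularly. It was at 5.94 in BAT 12 and 6.80 in SAT 14, at the lowest value in the other libraries of these depots, and at 6.28, 6.32 and 5.72 in VAT (6.10 ± 0.33, SD, n = 3). In the 5 libraries with both above the lowest value, miR-132-3p exceeded miR-212-3p by 2.92 to 3.29 on the log2 scale. With miR-212-3p at the lowest value, the excess was at least 5.83 in BAT 15, 4.46 in BAT 20, 6.33 in SAT 19 and 5.89 in SAT 20. The range from 2.92 to 3.29 thus holds only where miR-212-3p was detected. The VAT/BAT difference of 1.91 (95% interval 0.10 to 3.71) had an adjusted p = 0.0609 in limma. Without BAT 12 it was 2.78 (adjusted p = 0.00147 in limma). Without SAT 14, the VAT/SAT difference was 2.78 (adjusted p = 0.0146 in limma) in place of 1.62 (adjusted p = 0.347 in limma). Each omission takes out the only library of its depot with miR-212-3p above the lowest value. That depot then shows no spread, which favours a small p-value, and 2.78 is a minimum. Only with its VAT libraries did miR-212-3p pass the filter, which itself favours these differences. In SAT/BAT the log2 difference was 0.29 (-3.18 to 3.75, adjusted p = 0.911 in limma). It turned negative without BAT 15 or BAT 20 (-0.15 in either case), without SAT 14 (-0.87) and without the 3 libraries high in muscle miRNAs (-1.46).

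MiR-212-5p was at the lowest value in all BAT libraries, at 5.77, 3.32 and 3.32 in SAT and at 4.57, 3.92 and 3.83 in VAT (4.11 ± 0.41, SD, n = 3). VAT thus exceeded BAT at least 1.72-fold (adjusted p = 0.0409 in limma). Detected in no BAT library and in 1 of SAT, it was tested only because all 3 VAT libraries were above the lowest value, so that the filter itself favours this difference. Its VAT values lie close to the lowest value, and the call was lost in 13 of 17 other settings, with adjusted p from 0.00264 to 0.372 over them in limma and in the test without moderation. SAT 14, which held the highest value of both arms of miR-212, also had the highest epithelial miRNAs, with miR-200b-3p at 8.65 and all 5 of the list above the lowest value. The summed epithelial level was 9.31 in SAT 14 and 3.32 in the other SAT libraries, 3.32 in all BAT libraries, and 3.85, 3.32 and 7.40 in VAT 14, 17 and 20. Its part in the miR-212 values was not tested.

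MiR-9-5p was above the lowest value in VAT 14 (4.98) and VAT 20 (4.13), which are the VAT libraries with detected epithelial miRNAs and with miR-132-5p. SAT 14, the library with the highest epithelial miRNAs, had both miR-9-5p and miR-132-5p at the lowest value. The part of epithelial miRNAs in the miR-9-5p and miR-132-5p values was not tested. The opposite arm of miR-9, miR-9-3p, was at the lowest value in all 9 libraries, as were both arms of miR-124. Such values are a lack of detection and not absence.

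In BAT the members ran from miR-129-2-3p (9.75) through miR-128-3p (8.94) and miR-129-5p (8.70) to miR-132-3p (8.60), and the libraries of each overlapped those of the next in this order. MiR-128-1-5p (4.78) and miR-212-3p (4.20) lay below all of them, and the other members were at the lowest value in BAT. In SAT and VAT, miR-132-3p came first and miR-128-3p second, and the libraries of these miRNAs did not overlap each other or those of miR-212-3p, which came next in both (4.48 ± 2.01 in SAT and 6.10 ± 0.33 in VAT, SD, n = 3). The libraries of each further member overlapped those of the next. Mature miRNAs differ in how well they are ligated and amplified, so that this order is of values and not of molecules.

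In VAT/BAT, 3 of the 6 tested members passed an adjusted p of 0.05 in limma, where 66.2% of the 343 tested miRNAs did. Both arms of miR-129 were the 2 members lower in VAT, and 26.8% of all tested miRNAs were called lower. The member called higher was miR-212-5p, which was tested only through its VAT libraries. In SAT/BAT, 2 of the 6 passed, both of them arms of miR-129 and lower in SAT, against 40.5% of all tested miRNAs called in either direction and 18.1% called lower in SAT. In VAT/SAT, none of the 6 passed in limma or without moderation, where 16.0% of all tested miRNAs passed in limma, and 1 member, miR-129-5p, had an unadjusted p under 0.05 (0.0475; adjusted p = 0.132). Libraries did not overlap for 3 members in VAT/BAT (72.0% of all tested miRNAs), 3 in SAT/BAT (52.5%) and 1 in VAT/SAT (39.4%). The median log2 difference of the 6 was 0.061 in VAT/BAT, -0.30 in SAT/BAT and 0.54 in VAT/SAT, against 0.40, 0.26 and 0.10 over all tested miRNAs. VAT/BAT and SAT/BAT share their BAT libraries.

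**Figure D3:**
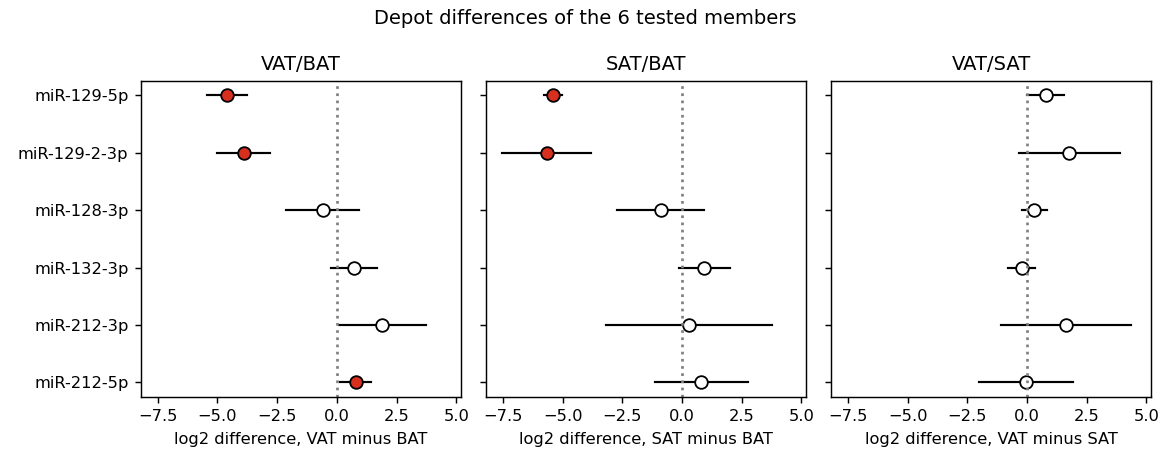
Log2 differences (x axis) of the 6 tested members (y axis) in VAT/BAT, SAT/BAT and VAT/SAT. Points are limma estimates, lines are 95% intervals, and filled points have an adjusted p under 0.05. Both arms of miR-129 lie between -5.67 and -3.90 in the comparisons with BAT, and the other 4 members lie between -0.89 and 1.91.

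Likeness was measured as the root mean square difference between centred log2 values over the 9 libraries, against each of the other 342 tested miRNAs. The nearest to miR-129-2-3p was miR-129-5p, at 0.76, where the median over all was 2.70. The nearest to miR-129-5p were miR-5130 (0.35), miR-2137 (0.38) and miR-1199-5p (0.39), all higher in BAT, with a median of 2.61 over all. MiR-132-3p lay nearest to miR-23a-3p (0.22), miR-326-3p (0.27) and miR-151-5p (0.28), and miR-212-5p to miR-299a-3p and miR-299b-3p (0.23 each). For miR-128-3p the nearest was miR-1934-5p, at 0.49, and for miR-212-3p miR-329-5p, at 0.86. MiR-1934-5p had means of 4.90 in BAT, 3.32 in SAT and 3.34 in VAT, at or near the lowest value in both white depots. MiR-299a-3p, miR-299b-3p and miR-329-5p were at the lowest value in BAT. Likeness to such miRNAs rests on few detected values. MiR-132-3p, the seed partner of miR-212-3p, was not among its 3 nearest.

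A list of 20 further miRNA numbers known from the nervous system gave 64 miRNAs of the table, of which 16 were above the lowest value in any library and 12 were tested. In VAT/BAT, 7 of these 12 were higher and 3 lower in VAT at an adjusted p under 0.05 in limma, with a median log2 difference of 1.44, beside 39.4% of all tested miRNAs called higher, 26.8% called lower and a median of 0.40. In SAT/BAT 1 was higher and 1 lower (22.4% and 18.1% of all), and in VAT/SAT none passed in limma, with medians of 0.84 and 0.21.

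The higher miRNAs in VAT/BAT were miR-338-3p, a miRNA of oligodendrocytes, with a log2 difference of 3.28 (adjusted p = 0.00255 in limma), miR-138-5p, a regulator of dendritic spines, with 3.18 (adjusted p = 0.0111), and miR-330-5p, miR-874-3p, miR-218-5p, miR-134-5p and miR-326-3p, with 1.04 to 2.28. MiR-218-5p and miR-330-5p passed the filter only with their VAT libraries and were at the lowest value in all BAT libraries. The filter itself thus favours the differences of miR-218-5p and miR-330-5p. MiR-874-3p was also at the lowest value in all BAT libraries, miR-138-5p in BAT 12 and BAT 20, and miR-134-5p in BAT 15. The sizes of the differences of these miRNAs are minima. MiR-338-3p was at 4.57, 6.40 and 5.09 in BAT and at 8.70, 8.04 and 9.16 in VAT. MiR-219-1-3p, an arm of a precursor whose other arm is known from oligodendrocytes, was at 5.72, 5.32 and 5.94 in BAT and at the lowest value in all 6 SAT and VAT libraries, at least 5.05-fold lower than in BAT (in limma, VAT/BAT gave an adjusted p of 0.000433, and SAT/BAT one of 0.000739). Since the 3 BAT libraries alone carried it past the filter, it had to differ. The other 2 that were lower in VAT were miR-485-3p (-1.42, adjusted p = 0.0136 in limma) and miR-485-5p (-1.59, adjusted p = 0.0344 in limma).

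**Figure D4:**
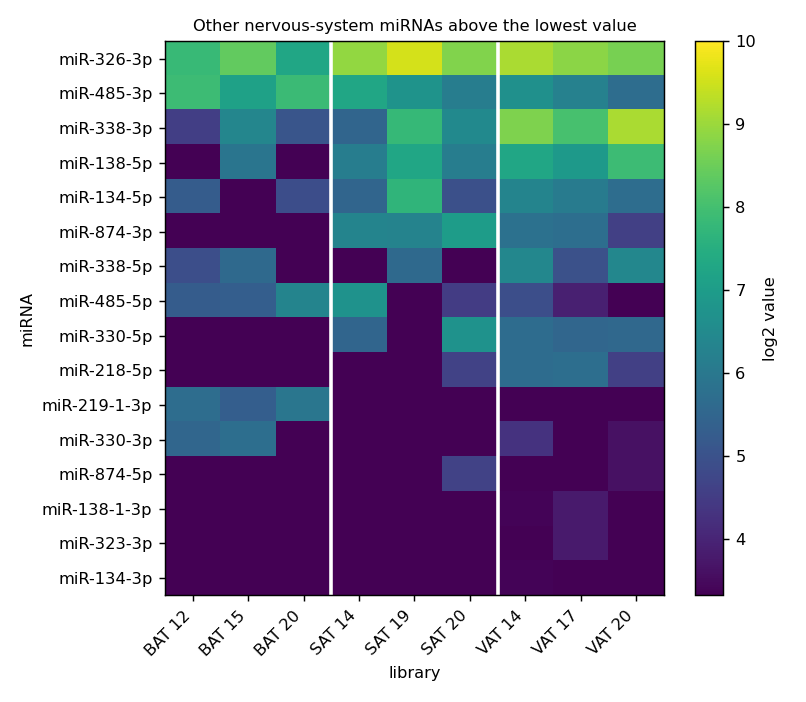
Log2 values of the 16 other nervous-system miRNAs (y axis) above the lowest value in any of the 9 libraries (x axis), as colours from 3.32 to 10. MiR-219-1-3p is above the lowest value in the 3 BAT libraries only, and miR-338-3p reaches 9.16 in VAT 20.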

How the data were processed

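Small RNA reads of 9 libraries were mapped by the authors to miRBase precursors, reads on mature miRNAs were kept, reads with several places were shared in proportion, and counts were divided by the total usable reads with 40 counts added. The deposited values are on a log2 scale, and their lowest value is 10 before log2. Libraries share values at the same ranks (within 0.14 over the 100 highest), as quantile normalization leaves them, a step not given in the sources used here. The paper calls the libraries biological replicates, so p-values measure the spread between them.

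The values were used as deposited. The 343 of 1251 miRNAs that exceeded the lowest value in 3 or more of the 9 libraries were fitted with limma 3.58.1 in R 4.3.3 on the 6 libraries of each comparison, two-sided, and p-values were adjusted over the 343 (Benjamini-Hochberg). The test was checked on simulated normal values without a floor, so the check does not cover groups at the lowest value. The alternatives were an unmoderated t-test per miRNA, other offsets, filters and scalings, all libraries in one fit, replicate blocks and each library left out. The paper's own t-test per miRNA had a fold limit and no stated adjustment. The unmoderated test here was adjusted (Benjamini-Hochberg) and had no fold limit. Summed levels are the log2 of summed unlogged values above the lowest, plus the lowest value once.

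Members were all miRNAs with the 6 numbers. The other miRNAs named were those of the fixed lists, the 3 nearest by likeness and miR-191-5p. The members and lists were chosen with earlier results of these data known. Sequences were read from RefSeq and loci from GENCODE M21, on the build of the labels.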

Additional observations from a re-analysis of the deposited data

How the results depend on the processing

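Over 22 alternatives, the 18 log2 differences of the tested members (6 members in 3 comparisons) gave 318 values, of which 287 kept their direction and their side of the threshold, 15 lost it, 3 gained it and 13 changed sign. MiR-129-5p was past the threshold in VAT/BAT and SAT/BAT in all 17 settings that could be fitted (adjusted p up to 0.036 and 0.00509), and miR-129-2-3p in all but the setting without BAT 15, BAT 20 and VAT 20. Of the 15 values that lost the threshold, 13 were of miR-212-5p in VAT/BAT. With any 1 library left out, 2 to 3 members were called in VAT/BAT, 2 in SAT/BAT, and 0 to 1 in VAT/SAT. The 1 was miR-212-3p without SAT 14, the only SAT library with miR-212-3p above the lowest value. In the main fit, 66.2% of all tested miRNAs were called in VAT/BAT and 40.5% in SAT/BAT. Their shares with 1 library left out are not given here. Without BAT 15, BAT 20 and VAT 20, 1 member was called in VAT/BAT and 1 in SAT/BAT. With only the miRNAs of the higher mean, 0 were called in either, since this removes all members but miR-128-3p and miR-132-3p. No value that changed sign was past the threshold. They were miR-128-3p in VAT/BAT without BAT 20 (0.052, the highest of a range from -1.22 with 1 library left out) and, without the 3 libraries high in muscle miRNAs, in VAT/BAT (0.55) and SAT/BAT (0.35), miR-212-3p in SAT/BAT without BAT 15 (-0.15), BAT 20 (-0.15), SAT 14 (-0.87, the lowest of a range up to 1.16) or those 3 (-1.46), and miR-212-5p in VAT/SAT with the lowest value subtracted and 1 added (1.12), relative to miR-191-5p (0.14), without SAT 14 (0.78, the highest of a range from -0.44), VAT 17 (0.060) or VAT 20 (0.11), or without those 3 (0.11). The cause was not tested.

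Over all tested miRNAs, the 227 called in VAT/BAT (66.2%) became 10.2% of 1251 without a filter, 120 with only the higher means and 130 without the 3 libraries, and the 139 in SAT/BAT became 74 without a filter. The 55 in VAT/SAT became 4 without a filter, 2 relative to miR-191-5p, 30 with all 9 libraries in one fit, 13 without moderation, 5 without the 3 libraries, and 0 to 49 with 1 library left out (0 without SAT 19, with 104 at an unadjusted p under 0.05). Libraries with the same number in their titles were not paired by the sources, and their deviations from the depot means correlated at -0.14 to 0.27 over 4 pairs, 2 of them over 0.1. As a replicate block over all 9 libraries, this number left 2 members called in VAT/BAT, 2 in SAT/BAT and 0 in VAT/SAT (2 members at an unadjusted p under 0.05), and 30 miRNAs in VAT/SAT. With the numbers 1 to 3 of the source names as a fixed block, 2, 2 and 0 members were called, and 0 miRNAs in VAT/SAT, with 105 at an unadjusted p under 0.05. The shares of all miRNAs called in VAT/BAT and SAT/BAT with either block are not given here. The member counts of these comparisons thus stand without a background. The depth of each single library was not used here, which limits what the values near 3.32 can show.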
